A study of Mus musculus with 2 samples.

Results

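The regions described here are the accessible chromatin sites around 3 cytokine receptor genes, Il7r, Il2ra and Il2rb, in mouse early thymic progenitors with and without the E proteins E2A and HEB. They are the ATAC-seq peaks whose centre lies in a window around each gene on the mm9 build: chr15:9350001-9600000 for Il7r, chr2:11460001-11700000 for Il2ra and chr15:78220001-78420000 for Il2rb. The windows hold 65 of the 85764 peaks of the wild-type library and 75 of the 69896 peaks of the double-knockout library. ATAC-seq marks accessible DNA with a transposase that inserts sequencing adapters.

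The wild-type library came from fetal thymus of C57BL/6 mice, from sorted cells negative for CD4, CD8, lineage markers and CD25 and positive for CD44 and ckit. The other library, called the double knockout here, came from fetal thymus of E2Afl/flHEBfl/flIL7RCre mice of the same strain. In these mice Cre expressed from an IL7R driver acts on floxed alleles of both E protein genes. The same gate was used, with YFP as a further required marker. There was 1 library per genotype, so no difference below has a replicate check and no test between genotypes was made. Neither the number of animals behind a library nor the read depth is given in the sources used here.

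The driver and the gate both touch these genes. CD25 is the product of Il2ra, so both libraries came from cells without surface CD25. The IL7R-Cre line in general use carries Cre within the Il7r gene, and the labels do not say how the present driver was made. YFP was required in the double knockout alone. Genotype, the Cre allele and the YFP gate therefore cannot be told apart in any comparison below. The wild-type list also held 10 Y-chromosome peaks and the double-knockout list 0, so the sex of the embryos cannot be told apart from genotype either. Deletion of E2A and HEB was not checked here.

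Il7r encodes the alpha chain of the IL-7 receptor, which pairs with the common gamma chain and signals through JAK kinases and STAT5 to keep lymphoid progenitors alive. Il2ra and Il2rb encode the alpha and beta chains of the IL-2 receptor. The alpha chain raises the affinity for IL-2 and is switched on as thymocytes leave the earliest progenitor stage, whereas the beta chain is shared with the IL-15 receptor and is needed by natural killer cells and other innate lymphocytes. E2A and HEB bind E-box sequences and drive the T cell programme, and the Id proteins that block them favour innate lymphoid fates. The title of the series places it at this choice between innate and adaptive lymphoid fates.

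The promoters of Il7r and Il2ra are shown because E proteins bind E-boxes, written CANNTG. Both are RefSeq sequences of the GRCm38.p6 build, 5′ to 3′ along the gene, with each CANNTG in capitals and with bases inside the gene's own record left out. They could not be placed against the mm9 peaks. Il2rb had no entry among the promoters at hand, so its E-boxes were not counted.
Il7r promoter, chr15:9529942-9530126, minus strand: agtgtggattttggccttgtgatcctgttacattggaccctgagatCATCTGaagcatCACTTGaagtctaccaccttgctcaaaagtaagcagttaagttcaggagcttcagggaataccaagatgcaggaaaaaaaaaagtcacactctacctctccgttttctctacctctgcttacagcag
Il2ra promoter, chr2:11642542-11642791, plus strand: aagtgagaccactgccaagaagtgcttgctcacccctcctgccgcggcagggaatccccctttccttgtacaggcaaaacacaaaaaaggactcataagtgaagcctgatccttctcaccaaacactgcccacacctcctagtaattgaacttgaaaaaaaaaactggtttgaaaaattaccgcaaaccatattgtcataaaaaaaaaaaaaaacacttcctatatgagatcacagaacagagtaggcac
The full 250 bases listed as the Il7r promoter held 3 matches to CANNTG. Of these, 2 lie in the stretch shown and the other in the bases inside the gene's own record. The 250 bases of Il2ra held 0. Over all 32851 promoters of the table, 66.2% held at least 1 match in 250 bases, with a median of 1. Neither promoter held CAGCTG, found in 13.0% of promoters, or CAGGTG on either strand, found in 17.2%. These 6-letter motifs are special cases of CANNTG.

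Each deposited peak carries a score from the authors' peak caller, in a unit not given in the sources used here. A peak's percentile is the share of its own list with a lower score, with ties placed at their middle. A peak was called kept if at least 1 bp of it was covered by a peak from the other library, a wild-type peak without such a partner was called lost, and a double-knockout peak without one gained. These words describe the lists only, since a weak site can miss the calling threshold in 1 library. The lists differ in length, so kept peaks were also ranked among the 52206 regions kept across the genome, a ranking of equal length in both libraries that is called the kept rank. A rank gives a site's place among the other sites of its library and not its absolute accessibility. A lower rank also cannot tell fewer cells with an open site from a less open site in each cell.

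All 3 windows held more double-knockout than wild-type peaks, although the double-knockout list was the shorter, with 0.815 peaks per wild-type peak over the genome. The Il7r window held 18 wild-type and 20 double-knockout peaks, the Il2ra window 19 and 23, and the Il2rb window 28 and 32. Among windows of the same widths tiled over the genome with at least 10 wild-type peaks, 15.0% (250 kb), 14.6% (240 kb) and 16.1% (200 kb) held more double-knockout than wild-type peaks. The excess turned to 0.923 double-knockout peaks per wild-type peak at Il2ra when the upper 50% of each list by score was used, and to 0.935 at Il2rb with windows widened by 100 kb on each side. At Il7r the value was 1 in the upper 50% of each list, so no excess remained there. The Il2rb window was among the densest of its width, since 99.6% of the 10274 windows with a peak held fewer wild-type peaks. Peak density was lower at Il7r and Il2ra, where 81.6% and 86.3% of windows held fewer.

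The 90 distinct regions of the 3 windows comprised 50 kept, 15 lost and 25 gained. At Il7r 4 of 18 wild-type peaks were lost (22.2%, exact Clopper-Pearson 95% interval 6.41 to 47.6%), at Il2ra 6 of 19 (31.6%, 12.6 to 56.6%) and at Il2rb 5 of 28 (17.9%, 6.06 to 36.9%). Over the whole wild-type list 39.1% of peaks were lost, a share above the interval at Il2rb and within it at the other 2 windows. With windows widened by 100 kb on each side, 14 of 46 Il2rb peaks were lost (30.4%, 17.7 to 45.8%), and that interval holds 39.1%. Gained peaks made up 6 of 20 at Il7r (30.0%, 11.9 to 54.3%), 10 of 23 at Il2ra (43.5%, 23.2 to 65.5%) and 9 of 32 at Il2rb (28.1%, 13.7 to 46.7%). The share over the whole double-knockout list, 25.3%, lay within all 3 intervals. These intervals cover counting error over peaks only and treat neighbouring peaks as independent.

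**Figure D1:**
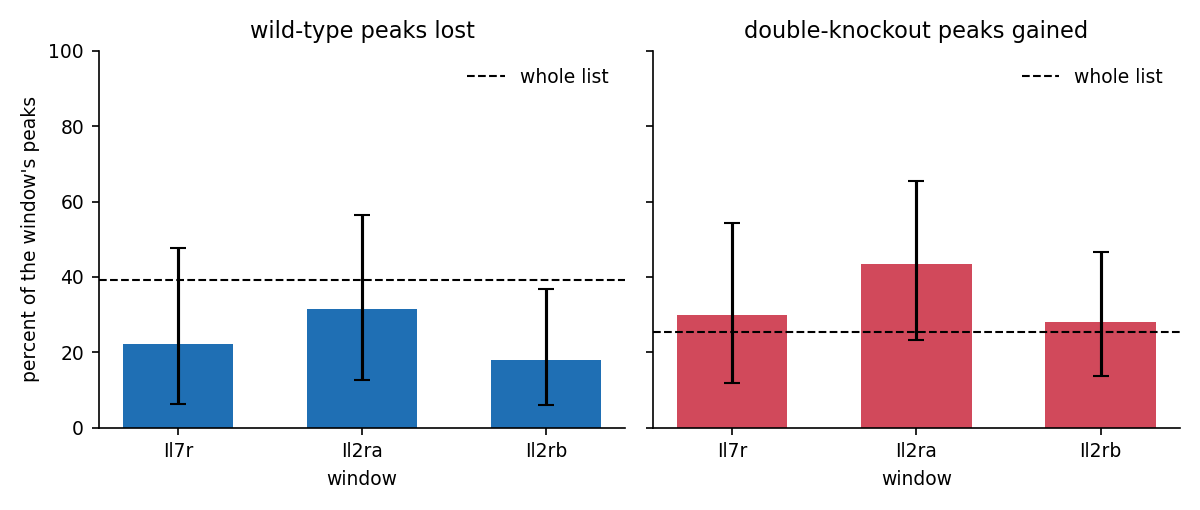
Share of wild-type peaks lost (left) and of double-knockout peaks gained (right) in each window, as a percent of the window's peaks with exact 95% intervals as error bars; the dashed line is the share over the whole list, 39.1% and 25.3%. In these windows the interval excludes the dashed line only for lost peaks at Il2rb.

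Most lost or gained peaks were weak. Of the 15 lost peaks, 5 stood at percentile 50 or above (1 at Il7r, 3 at Il2ra, 1 at Il2rb), and of the 25 gained peaks 7 did (2, 3 and 2). Strong peaks were also less often lost or gained over the genome. At percentile 80 or above, 9.997% of all wild-type peaks were lost, against 39.1% of the whole list. Of double-knockout peaks at percentile 80 or above, 8.976% were gained, against 25.3%. The genome share at percentile 50 or above was not counted. In the 3 windows, 5 lost and 4 gained peaks had a counterpart from the other genotype with its centre within 500 bp. All of them lay at Il2ra or Il2rb, so that the lists marked nearby positions there. Over the genome 14.6% of lost and 31.2% of gained peaks had such a counterpart. The centres of kept pairs were 8.5 bp apart at Il7r, 7 bp at Il2ra and 12 bp at Il2rb in the median, against 10 bp over the genome. The largest distance in a kept pair was 94, 145 and 145 bp in the same order.

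**Figure D2:**
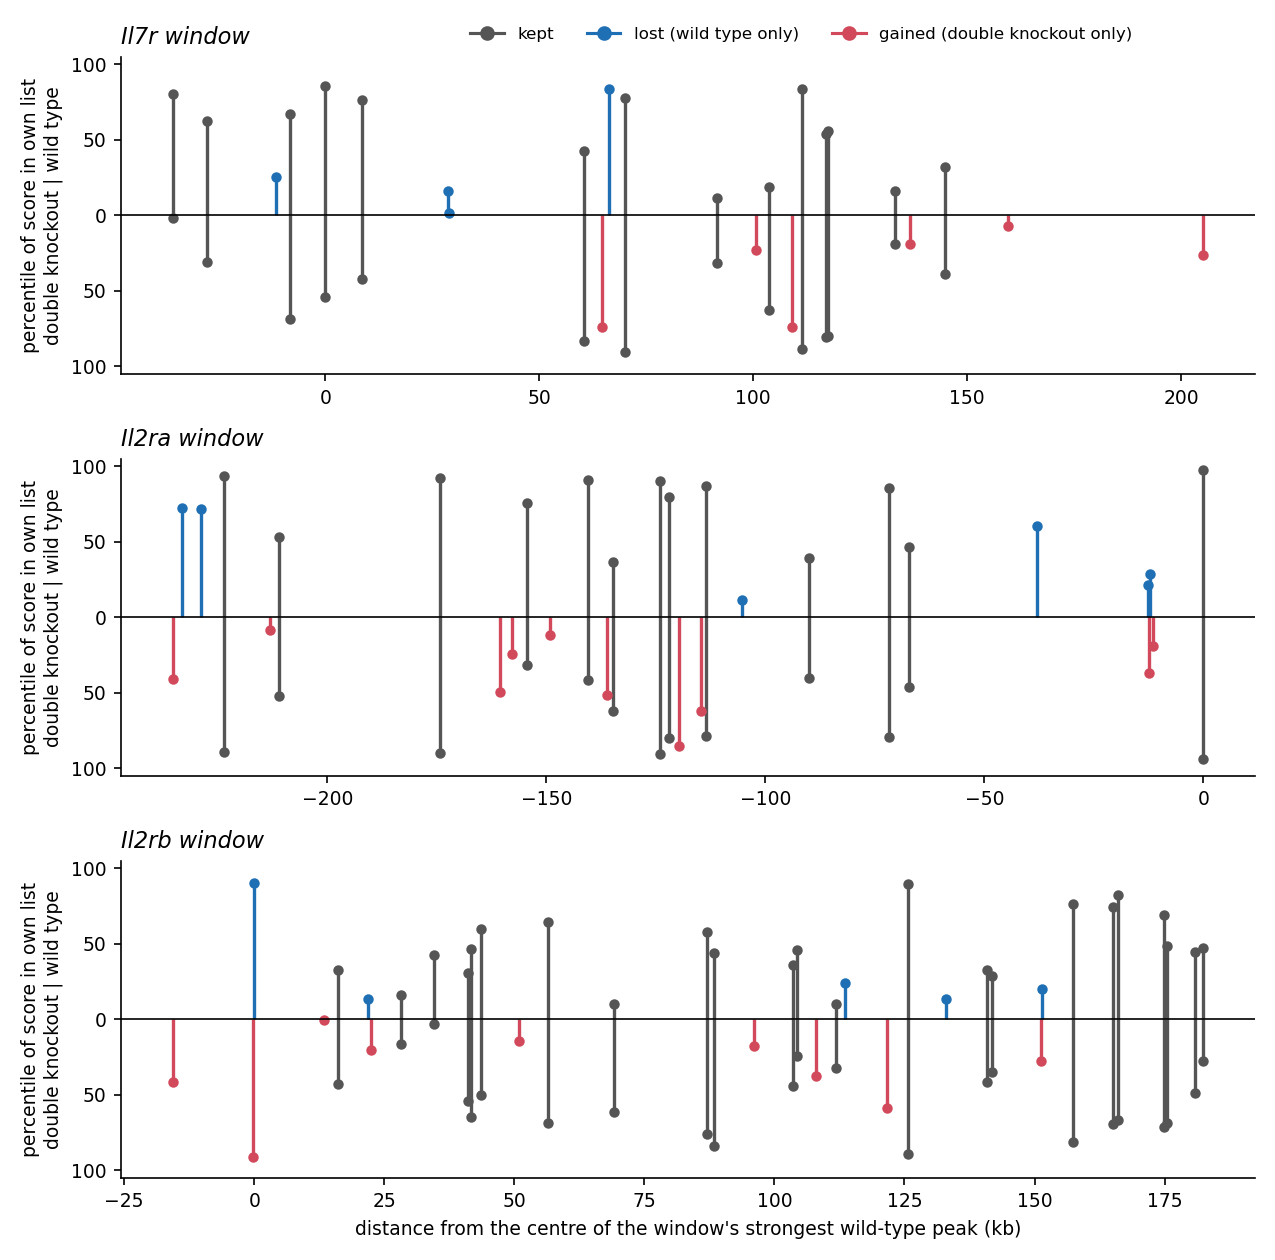
Percentile of every peak within its own list (vertical axis, wild type upward and double knockout downward) against the distance in kb from the centre of the window's strongest wild-type peak, for kept (grey), lost (blue) and gained (red) peaks. At Il7r the leftmost 5 kept peaks are mostly taller in the wild type, and those to the right of 50 kb are taller in the double knockout.

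The Il7r window split into 2 stretches of opposite direction. This division was drawn after the values were seen. In the first, 44.5 kb long (chr15:9357720-9402198), 4 of 5 kept peaks ranked lower in the double knockout, each by at least 20 points of kept rank. In the second, 84.4 kb long (chr15:9453790-9538201), all 9 kept peaks ranked higher, by 6.91 to 51.5 points, and 6 of them by at least 20. Over the genome, 12.0% of kept pairs ranked lower and 11.3% higher by at least 20 points, and 53.1% ranked higher by any amount. On whole-list percentiles, 4 kept peaks of the window were lower and 4 higher by at least 20 points, against 17.8% and 7.40% of all kept pairs. Wild-type kept ranks also differed between the stretches. They were 48.8 to 78.5 in the first, and in the second mostly 4.60 to 40.8, with the others at 67.4 and 75.8. Position and wild-type rank thus partly coincide. Kept pairs of low rank rank higher more often, so the peaks of the whole window were also read by wild-type rank. Of the 8 kept peaks in the lower 50% of wild-type kept ranks, 7 ranked higher, 5 of them by at least 20 points, and 1 was lower by as much, against 62.1%, 20.9% and 7.94% of all kept pairs there. Of the 6 kept peaks in the upper 50% of wild-type kept ranks, 3 were lower and 1 was higher by at least 20 points, against 16.1% and 1.74% of all kept pairs there.

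The largest difference towards the wild type at Il7r was at the outermost site of the first stretch. The peak at chr15:9357720-9357870 had a score of 17.4 (percentile 80.3) in the wild type, and its partner at chr15:9357711-9357861 had 3.08 (percentile 1.69) in the double knockout. Its kept rank differed by -69.7 points. Of all kept pairs within 5 points of the same wild-type kept rank, called like-ranked pairs here, 0.518% were lower by as much. It was thus a strong site of the wild-type list and among the weakest of the double-knockout list.

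The neighbouring kept peaks were lower to a smaller extent. The strongest wild-type peak of the window, at chr15:9393347-9393497, scored 21.9 (percentile 85.8) in the wild type and 8.81 (percentile 54.2) in the double knockout. The peak at chr15:9402048-9402198 went from percentile 76.1 to 41.8 and that at chr15:9365660-9365810 from 62.8 to 30.5. Differences of this size were common, since 13.1%, 16.0% and 15.3% of like-ranked pairs were lower by as much. The remaining kept peak of the stretch, at chr15:9385119-9385269, stood at percentile 66.9 (wild type) and 68.4 (double knockout).

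In the second stretch the leading double-knockout peak was at chr15:9463188-9463338. It scored 34.6 (percentile 90.2), and its wild-type partner at chr15:9463282-9463432 scored 15.9 (percentile 77.7). The kept rank was 20.2 points higher, and 1.33% of like-ranked pairs were higher by as much. The largest difference was at chr15:9453790-9453940, with a score of 6.90 (percentile 42.8) in the wild type and 22.8 (percentile 82.8) in the double knockout, a kept rank 51.5 points higher that 1.12% of like-ranked pairs reached. These 2 sites were of middle and upper rank in the wild type and in the upper 20% of the double-knockout list.

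A further group of 4 kept peaks lay between 9497092 and 9510931. The peak at chr15:9497092-9497242 went from percentile 18.9 to 62.6, and 6.80% of like-ranked pairs were higher by as much. A double peak followed, at chr15:9510389-9510539 and chr15:9510781-9510931, with percentiles of 53.9 and 55.8 in the wild type and 80.2 and 79.5 in the double knockout. Differences as large were seen in 2.61% and 3.31% of like-ranked pairs. Between this peak and the double peak, that at chr15:9504652-9504802 was strong in both libraries, at percentile 83.9 (wild type) and 88.2 (double knockout). The other 3 kept peaks of the stretch were weak in both, at percentiles of 11.7, 16.1 and 31.8 in the wild type and 31.5, 18.9 and 38.7 in the double knockout. The first of these, at chr15:9484849-9484999, just passed 20 points of kept rank, at 20.1. This was common, since 32.0% of like-ranked pairs were higher by as much.

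The same stretch held the strongest sites of the window that were listed once. A wild-type peak at chr15:9459587-9459737, with a score of 20.3 (percentile 84.0), had no partner. The nearest double-knockout peak, 1484 bp away between centres, was a gained peak at chr15:9458103-9458253 with a score of 15.3 (percentile 73.6). Of all wild-type peaks at least as strong, 1.68% were as far from the other list, and of double-knockout peaks at least as strong as the gained peak, 1.57%. The 2 libraries thus each listed a strong site here that the other did not, at a distance far beyond that within kept pairs. A second gained peak, at chr15:9502505-9502655, had a score of 15.6 (percentile 74.1) and lay 2147 bp from the nearest wild-type peak, an isolation shared by 1.12% of double-knockout peaks as strong. These shares are over all peaks as strong, and the kept peaks among them overlap the other list by definition. How isolated these peaks were among lost or gained peaks alone was not counted.

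The other library-only peaks at Il7r were weak. The 3 remaining lost peaks stood at percentiles of 25.2, 16.1 and 1.77, and 2 of them lay side by side at chr15:9421994-9422144 and chr15:9422365-9422515, 19951 and 20322 bp from the nearest double-knockout peak. The 4 remaining gained peaks stood at percentiles of 6.66 to 26.3. The last of these, at chr15:9598470-9598620, was 33275 bp from the nearest wild-type peak.

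**Figure D3:**
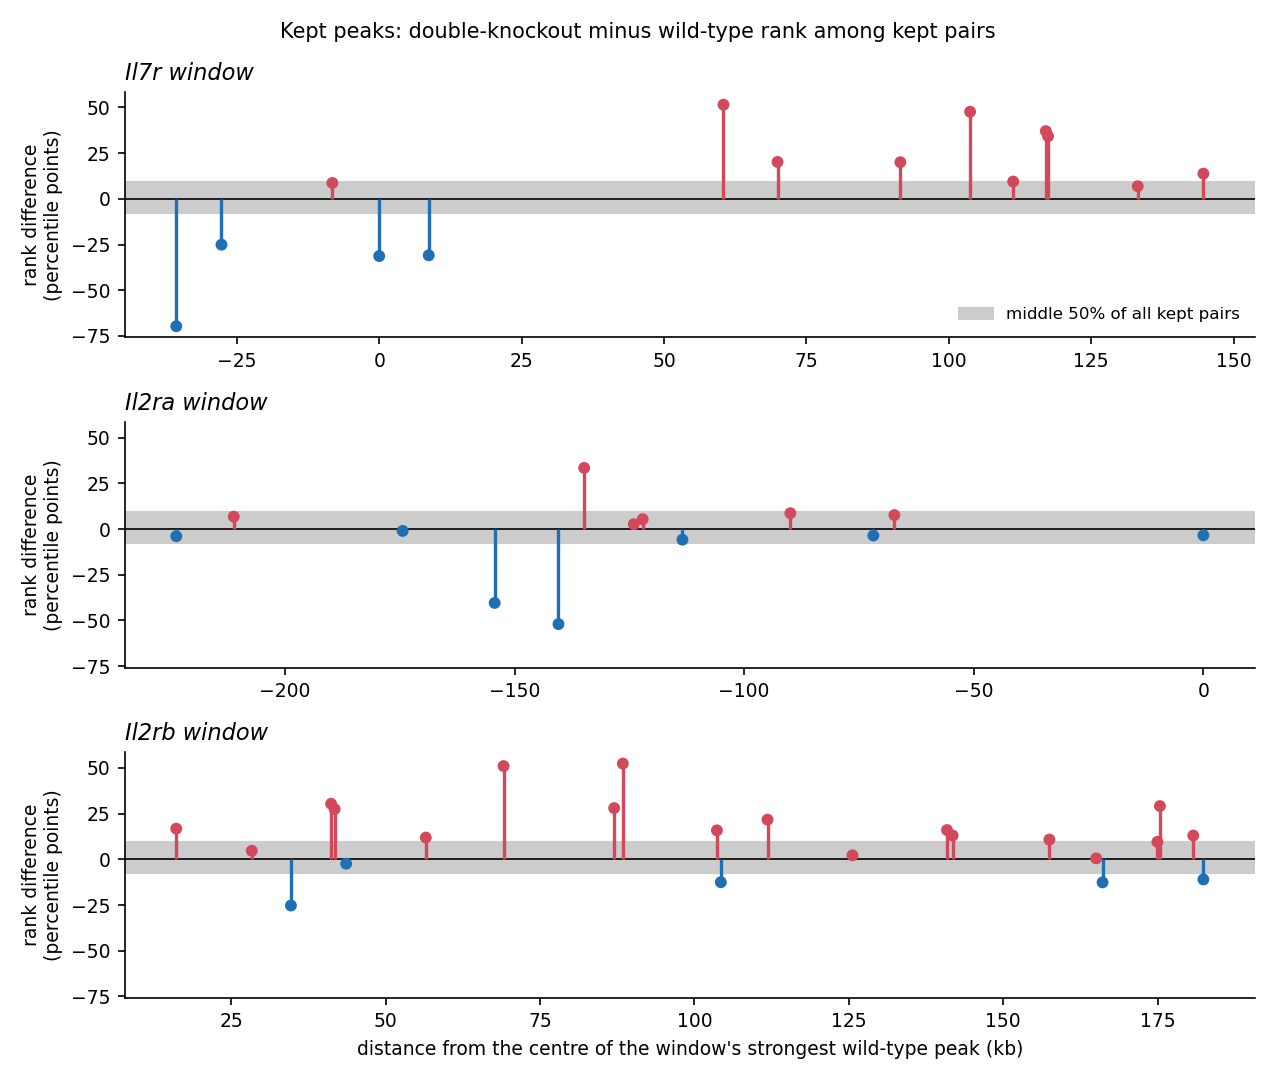
Double-knockout minus wild-type kept rank, in percentile points, of each kept peak against its distance in kb from the window's strongest wild-type peak; red points are higher and blue points lower in the double knockout, and the grey band holds the middle 50% of all 52206 kept pairs. The Il7r panel passes from 4 negative values of 5 on the left to 9 positive values on the right, most Il2ra values lie in the band, and 18 of 23 Il2rb values are positive.

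At Il2ra most kept peaks stood at similar ranks in both libraries, and each list also held sites that the other did not. Of 13 kept peaks, 10 differed by less than 10 points of kept rank, against 54.8% of all kept pairs. Of the 9 in the upper 50% of wild-type kept ranks, 2 ranked higher and 2 were lower by at least 20 points, against 44.1% and 16.1% of all kept pairs there. In the lower 50% all 4 ranked higher, 1 of them by at least 20 points, against 62.1% and 20.9%. The 3 strongest kept peaks by wild-type score were near the top of both lists. The peak at chr2:11699154-11699304 scored 50.4 (percentile 97.4) in the wild type and 45.8 (percentile 94.1) in the double knockout. That at chr2:11475508-11475658 scored 35.7 and 32.6 (percentiles 93.8 and 89.3), and that at chr2:11524807-11524957 scored 32.5 and 34.3 (percentiles 92.5 and 90.0). Strong sites of the Il2ra window were thus listed in both genotypes, in cells sorted for the absence of CD25. Whether these sites belong to Il2ra or to a neighbouring gene was not determined.

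The exceptions at Il2ra were 3 adjacent kept peaks. The peak at chr2:11558733-11558883 was strong in the wild type, with a score of 29.7 (percentile 91.2), and stood at 6.69 (percentile 41.8) in the double knockout, a kept rank difference of -52.0 points that 3.73% of like-ranked pairs reached. Its neighbour at chr2:11544836-11544986 went from percentile 75.9 to 31.5, which is less unusual, since 11.3% of like-ranked pairs were lower by as much. The next kept peak, at chr2:11564325-11564475, went the other way, from percentile 36.8 to 61.8, and 8.99% of like-ranked pairs were higher by as much. Its partner was displaced by 145 bp, so that the 2 peaks overlapped by only a few bases.

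The strongest gained peak of all 3 windows without a wild-type peak close by was at Il2ra. It lay at chr2:11579368-11579518, with a score of 25.8 (percentile 85.3), 2307 bp from the nearest wild-type peak. Of the 10342 double-knockout peaks at least as strong, kept peaks included, 0.367% were as isolated. Most strong peaks were kept, since 8.976% of double-knockout peaks at percentile 80 or above were gained over the genome. The share among gained peaks alone was not counted. It stood between kept peaks that hardly differed: chr2:11577061-11577211 at percentiles 79.8 and 79.9, chr2:11575139-11575289 at 90.5 in both, and, on the other side, chr2:11585720-11585870 at 86.7 (wild type) and 78.5 (double knockout). A weaker gained peak at chr2:11584501-11584651 (score 10.7, percentile 62.2) lay in the same interval. The interval thus kept its wild-type sites and held 2 further sites in the double knockout.

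Of the other gained peaks at Il2ra, that at chr2:11563006-11563156 scored 8.28 (percentile 51.5). The remaining 7 stood at percentiles of 8.34 to 49.7. The strongest lost peaks were a pair at the left end, chr2:11466040-11466190 (score 13.6, percentile 72.7) and chr2:11470221-11470371 (score 13.3, percentile 71.8). Another, at chr2:11661251-11661401 (score 9.97, percentile 60.5), was 25475 bp from the nearest double-knockout peak. Of wild-type peaks as strong, kept peaks included, 1.15% were as isolated. The other 3 lost peaks stood at percentiles of 11.7 to 28.6.

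At Il2rb most kept peaks ranked higher in the double knockout. This held for 18 of 23 by kept rank (78.3%, 56.3 to 92.5%), above the 53.1% of all kept pairs, and 7 were higher by at least 20 points while 1 was lower. On whole-list percentiles 15 of 23 were higher (65.2%, 42.7 to 83.6%), against 35.6% of all kept pairs, with 4 higher and 2 lower by at least 20 points. With the window widened by 100 kb on each side, 59.4% of 32 were higher on whole-list percentiles, with 5 higher and 5 lower by at least 20 points. Most of these peaks were of low wild-type rank. Of the 17 in the lower 50% of wild-type kept ranks, 13 ranked higher, 7 of them by at least 20 points, and 1 was lower by as much, against the same 62.1%, 20.9% and 7.94%. Of the 6 in the upper 50%, 5 ranked higher, against 44.1%, and none differed by 20 points in either direction.

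The 2 kept peaks with the largest differences in kept rank at Il2rb were higher in the double knockout. The peak at chr15:78325441-78325591 scored 7.01 (percentile 43.6) in the wild type and 24.4 (percentile 84.2) in the double knockout. Its kept rank was 52.4 points higher, and 0.90% of like-ranked pairs were higher by as much. The other, at chr15:78306122-78306272, went from percentile 10.1 to 61.4 on whole-list ranks, the largest such difference of the window, and 6.52% of like-ranked pairs were higher by as much. Between them, the peak at chr15:78324034-78324184 went from percentile 58.0 to 76.2, with a kept rank 28.0 points higher, and 5.42% of like-ranked pairs were higher by as much.

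A double peak elsewhere in the window, chr15:78278186-78278336 and chr15:78278752-78278902, was also higher, at percentiles 30.8 and 46.7 in the wild type and 54.2 and 64.9 in the double knockout. Their kept ranks were 30.4 and 27.5 points higher, as 12.7% and 10.2% of like-ranked pairs were to the same extent. The peak at chr15:78412434-78412584 was 29.1 points higher. The kept peak of the window lower by at least 20 points of kept rank was near the double peak, at chr15:78271675-78271825. It went from percentile 42.8 to 3.20, with a kept rank difference of -25.3 points. Of like-ranked pairs, 2.51% were lower by as much. Neighbouring sites of this window therefore ranked in opposite directions.

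The strongest site of the Il2rb window was marked at different positions in the lists. The wild-type peak at chr15:78237044-78237194 scored 28.1 (percentile 90.4) and counted as lost. The double-knockout peak at chr15:78236797-78236947 scored 37.3 (percentile 91.3) and counted as gained. Their centres were 247 bp apart, so that the gap between them was shorter than a peak and both libraries listed a strong site in this short stretch. By wild-type score, the strongest kept peaks were at chr15:78362639-78362789, with percentiles of 89.8 and 89.3, at chr15:78403142-78403292, with 82.3 and 67.0, and at chr15:78394533-78394683, with 76.6 and 81.0. They differed little apart from the second.

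The remaining library-only peaks at Il2rb were weak. A single gained peak among them stood above percentile 50, at 58.9. It lay at chr15:78358649-78358799, with a score of 9.87, 3990 bp from the nearest wild-type peak. The other 7 gained peaks stood at percentiles of 0.752 to 41.8 and the other 4 lost peaks at 13.2 to 24.0. At 2 places, near 78259005 and 78388510, a lost and a gained peak lay 427 and 250 bp apart.

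**Figure D4:**
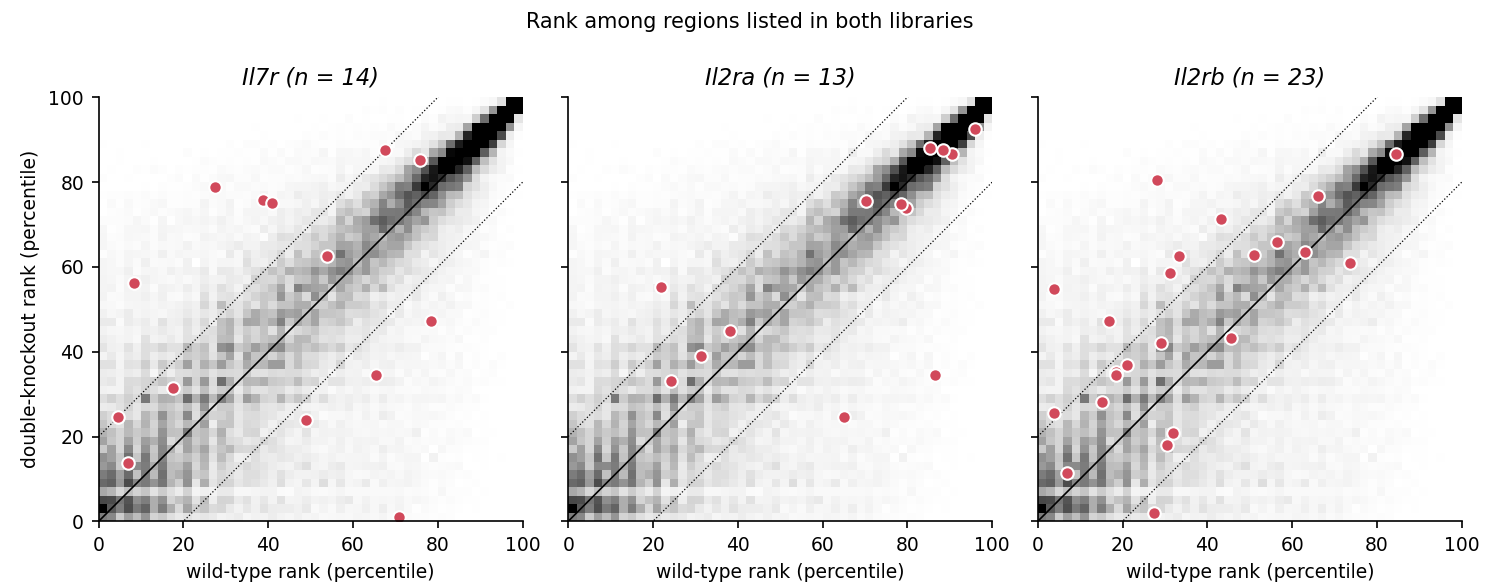
Double-knockout against wild-type kept rank, in percentiles, for the kept peaks of each window (red) over all 52206 kept pairs (grey, darker where more pairs fall); the solid line marks equal rank and the dotted lines a difference of 20 points. Il7r points lie beyond both dotted lines, 6 above and 4 below, 10 of 13 Il2ra points follow the solid line, and Il2rb points lie mostly above it.

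Of the kept peaks, 10 of 14 at Il7r, 3 of 13 at Il2ra and 8 of 23 at Il2rb differed by at least 20 points of kept rank in either direction, against 23.4% of all kept pairs. The share at Il2ra was thus close to that of the genome. Whether the windows differ from each other was not tested. Sites in the upper 20% of their own list made up 4 of 18 wild-type and 4 of 20 double-knockout peaks at Il7r. They made up 7 of 19 and 5 of 23 at Il2ra, and 3 of 28 and 4 of 32 at Il2rb.

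The windows are wider than the genes and the peaks carry no gene names. In the order of protein-coding genes on GRCm38, Il7r lies between Capsl and Spef2, Il2ra between Rbm17 and Il15ra, and Il2rb between Tmprss6 and C1qtnf6. Il15ra encodes the alpha chain of the IL-15 receptor, whose beta chain comes from Il2rb. Which of these genes a peak belongs to was not determined. Window edges also set the counts: at the right edge of Il2ra, the peak just inside at chr2:11699154-11699304 scored 50.4 and the next, just outside at chr2:11700028-11700178, scored 57.6 (wild type) and 65.9 (double knockout). At the right of Il7r the nearest peak outside, at chr15:9631745-9631895 in the wild type, scored 28.6, and its counterpart in the double knockout scored 15.7. Near the right edge of Il2rb the wild-type peaks inside and outside scored 7.56 and 5.48, and those of the double knockout scored 4.99 and 11.9.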

How the data were processed

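The authors deposited a separate peak list for each library, giving every peak a score, and nearly all peaks are 151 bp wide. Tools named per the submitters' processing notes are bcl2fastq 1.8.4, Bowtie and HOMER, and the build is mm9; no settings come with them. The calling threshold, the handling of duplicates and any shifting of read ends, each of which could change which weak sites are listed, are not stated in the sources used here. The score was used only to rank peaks within a list.

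Peaks were placed by their centre, paired by overlap of at least 1 bp and ranked with pandas 2.3.3 and NumPy 2.4.6 under Python 3.11.15. Intervals are exact Clopper-Pearson 95% (SciPy 1.17.1). The steps were tested on simulated data. Peaks named individually are lost or gained peaks at percentile 50 or above, the 3 strongest kept peaks and those with the largest differences per window. Others described, the comparison with like-ranked pairs, the limits of 10 points and of 10 peaks per tiled window, and the division by wild-type rank were chosen after the values were seen. The windows and measures were chosen with earlier results of these data known. Alternatives changed the overlap rule, score threshold, list length, ranking and windows. With no mm9 annotation or sequence at hand, the other genes of the pathway (Il2rg, the ligands, JAK and STAT5 genes and their targets) and the sequence of peaks were not analysed here.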

Additional observations from a re-analysis of the deposited data

How the results depend on the processing

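No paired analysis was possible because each genotype has a single library, which also means that leaving out a replicate could not be tried. Of the 18 values recomputed (shares lost, gained and ranked higher, counts past 20 points, and peaks per wild-type peak, for each window), 94 of the alternative values stayed within the interval or within 1.5 times the main count, 9 moved further and 2 turned direction. In the inner 50% of the windows, 100% of 8 kept Il7r peaks ranked higher, 0 were lower by at least 20 points, and 9.09% of Il2ra wild-type peaks were lost. Fewer peaks enter there. With windows widened by 100 kb on each side, 58.8% of 17 kept Il7r peaks ranked higher on whole-list percentiles, against 71.4% of 14. Of the 17, 4 were higher and 5 lower by at least 20 points. With each upper 50% by score against the whole other list, 13.3% of Il2rb double-knockout peaks were gained. The Il2rb count of kept peaks higher by at least 20 points was 7 by kept rank and 9 at equal list lengths, against 4 on whole-list percentiles. The count lower was 1 in both, against 2. With windows widened by 100 kb, 5 were higher and 5 lower. Double-knockout peaks per wild-type peak turned to 0.923 at Il2ra in the upper 50% of both lists, and were 1.03 there in widened windows. At Il2rb the value turned to 0.935 in widened windows, and was 1.67 in the upper 50% of both lists. At Il7r the value was 1 in the upper 50% of both lists, counted above as within the interval. The excess of double-knockout peaks thus depends on the score threshold at Il7r and Il2ra and on the window's limits at Il2rb. Widened windows also put the Il2rb share of lost peaks at 30.4%, with an interval that holds the whole-list share. The causes were otherwise not tested. Ranking among kept pairs, equal list lengths and scores divided by the list median reversed the direction of none of the 17 kept peaks that differed by at least 20 points on whole-list percentiles (15 at equal lengths). The read depth is unknown, so which weak sites went unlisted for lack of reads cannot be said.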
